A study of Mus musculus with 37 samples.

Results

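Forkhead genes encode transcription factors that share a winged-helix DNA-binding domain, and 43 of them were read on the arrays, of 19938 genes with a probe set of their own. Members were all genes whose symbol is Fox followed by a letter from a to s and a number, each read by a probe set with exactly 1 gene symbol, the brightest where a gene had several. RNA came from homogenates of the whole right lung of A/J and B6 (C57BL/6J) mice, 2 inbred strains of which A/J has the longer gestation by about a day. Each replicate was a pool of 3 male lungs from 1 litter, with 3 litters per group. Embryonic days E15.5 to E20.5 were covered daily in A/J and E15.5 to E18.5 in B6, each with newborns (PN0), so that at PN0 the B6 pups were younger after conception. The labels name no treatment or transgene in either strain. Values are log2 levels from Affymetrix Mouse Gene 1.0 ST arrays after RMA, and the 37 arrays gave 36 replicates because a B6 replicate of E18.5 was the mean of its arrays 2 and 2b.

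In the lung, Foxa1 and Foxa2 act in the epithelium, where they bind closed chromatin and switch on genes of airway and surfactant-producing cells, and Foxp1, Foxp2 and Foxp4 act largely as repressors there. Foxf1 and Foxf2 act in the mesenchyme, which receives hedgehog signals from the epithelium, and Foxf1 is also needed for the capillary endothelium. Foxj1 switches on the genes of motile cilia, Foxm1 those of mitosis, and the Foxo factors are kept out of the nucleus when insulin or growth factors activate the kinase AKT. In homogenates of a whole organ, fewer cells of a type and less RNA per cell cannot be told apart.

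Of the 43 genes, 33 rose above the level of probe sets for olfactory receptors, genes not thought to be used in lung. The 95th percentile of 1023 such probe sets, each taken at its highest group mean, was 5.83 on the log2 scale, and 26.7% of all probe sets stayed under it. The 10 genes under it in every group were Foxa3, Foxb1, Foxd1, Foxd4, Foxh1, Foxi1, Foxn1, Foxo6, Foxr1 and Foxr2. Levels of those genes are called dim here.

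The RefSeq promoter table of build GRCm38.p6 held 28 of the 43 genes. The 250 bases upstream of the start are shown for Foxf2, which fell, and for Foxo1 and Foxo3, which rose, as the sequences from which their RNA is started. Capitals mark GGGCGG or its reverse complement CCGCCC, the GC box, and CCAAT or its reverse complement ATTGG. No matches overlapped.
Foxf2, chr13:31625566-31625815, plus strand: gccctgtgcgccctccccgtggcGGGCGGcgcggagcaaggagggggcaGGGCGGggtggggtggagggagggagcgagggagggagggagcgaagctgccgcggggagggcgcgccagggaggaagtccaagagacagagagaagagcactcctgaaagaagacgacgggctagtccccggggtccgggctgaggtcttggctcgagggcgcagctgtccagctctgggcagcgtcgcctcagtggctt
Foxo1, chr3:52268087-52268336, plus strand: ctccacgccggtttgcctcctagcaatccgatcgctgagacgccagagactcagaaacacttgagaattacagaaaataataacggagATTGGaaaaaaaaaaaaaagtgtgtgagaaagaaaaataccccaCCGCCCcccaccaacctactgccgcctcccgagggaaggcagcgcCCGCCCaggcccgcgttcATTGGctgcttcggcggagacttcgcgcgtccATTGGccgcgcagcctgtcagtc
Foxo3, chr10:42276696-42276945, minus strand: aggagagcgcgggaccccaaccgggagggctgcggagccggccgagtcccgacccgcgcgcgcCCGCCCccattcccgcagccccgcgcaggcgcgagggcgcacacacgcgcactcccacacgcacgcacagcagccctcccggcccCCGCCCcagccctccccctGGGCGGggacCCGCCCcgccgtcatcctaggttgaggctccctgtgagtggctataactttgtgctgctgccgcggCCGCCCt
Each of the 3 windows lies directly before the annotated gene. Foxf2 held 2 GC boxes, Foxo1 held 2 GC boxes and 3 CCAAT matches, and Foxo3 held 5 GC boxes. Across all 32851 promoter windows of this length, 32.7% held a GC box and 33.85% a CCAAT match on either strand, and of the 33 windows of forkhead genes 23 and 14 did. The core forkhead motif TGTTTAC was in 3.17% of all windows and in 1 of the 33, that of Foxa1, which fell. Its match is shown with 10 bases on either side, with the motif in capitals as its reverse complement.
Foxa1, chr12:57546236-57546262, minus strand: atactgctttGTAAACAaagtgagggc
This match starts 141 bases before the start, and the window lies inside the annotated span of Foxa1 (chr12:57540628-57548029). A match describes letters and not a bound site.

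Between E15.5 and PN0, A/J showed 9 forkhead genes that rose and 6 that fell, and B6 showed 11 and 7. A change was called at limma's adjusted p under 0.05 with a difference of at least 25%. Of all 21789 probe sets tested, 21.6% rose and 21.2% fell in A/J, and in B6 20.6% rose and 22.4% fell. The forkhead genes that rose made up a share near this background, and those that fell a smaller one. In both strains 14 genes were called, each in the same direction in both. Foxf1, Foxj1, Foxj2, Foxj3, Foxk1, Foxn3, Foxo1, Foxo3 and Foxp1 rose, and Foxm1, Foxp2, Foxl1, Foxf2 and Foxa1 fell. B6 alone added Foxq1 and Foxs1 upward and Foxk2 and the dim Foxa3 downward, and A/J alone added Foxc1 downward. The strains' difference in these 5 changes passed the test for none of them. Across all ages of a strain, limma's F test (adjusted p under 0.001, at least 25% between the highest and lowest mean) called 19 forkhead genes in A/J and 16 in B6, beside 50.8% and 43.2% of all probe sets. It called 14 in both strains, the 14 named above with Foxp4 in place of Foxj1. Without the 5 replicates described next, the A/J counts were 9 upward and 5 downward, and those of B6 were 11 and 6.

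**Figure D1:**
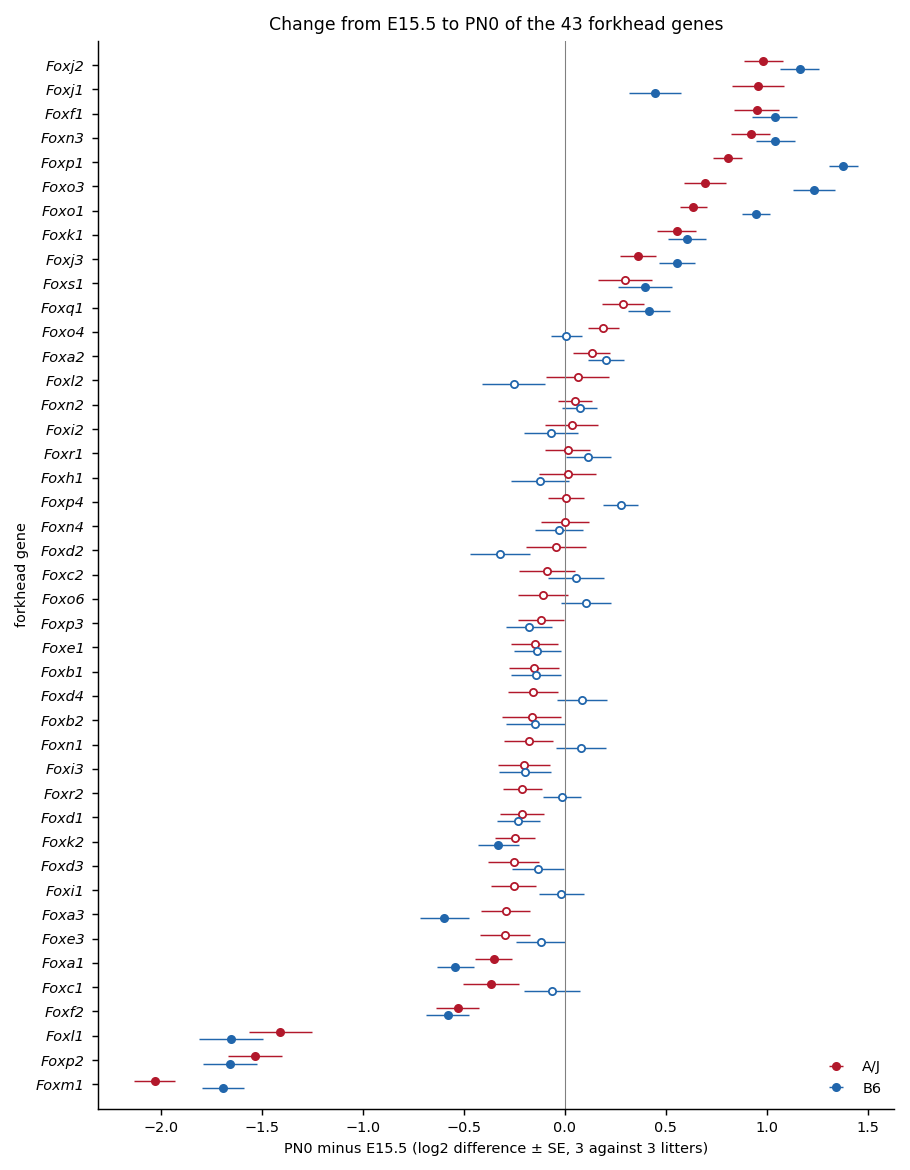
Log2 difference between PN0 and E15.5 for each of the 43 forkhead genes in A/J (red) and B6 (blue). Points are fitted differences, bars are limma's standard errors (3 against 3 litters), and filled points passed the test. Foxm1, Foxp2 and Foxl1 stand lowest in both strains, at -2.03 to -1.41, and Foxp1 in B6 stands highest at 1.38.

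Markers of neighbouring tissues varied between litters of the same group. In 5 replicates the mean over oesophagus, liver or heart genes was over 1 on the log2 scale above the median of its group. A/J E15.5 replicate 1 was 2.10 above in 8 heart genes and 1.69 above in 9 liver genes, and B6 E15.5 replicate 1 was 2.79 above in liver genes and 1.01 in heart genes. B6 E16.5 replicate 1 was 1.69 above in liver genes, A/J E19.5 replicate 2 was 1.38 above in 10 oesophagus and upper airway genes and 1.17 in liver genes, and A/J PN0 replicate 2 was 1.32 above in oesophagus genes. The mean of 10 lung markers ran from 9.34 to 12.06 over all replicates, and those of 7 thymus genes and 4 thyroid genes, tissues with forkhead factors of their own, stayed between 4.97 and 5.61. The median of all probe sets in an array ran from 6.86 to 7.13. A signal shared by most litters of a group does not show as a distance from the group's median. At E18.5 the means over the oesophagus and upper airway genes were 6.915, 6.713 and 6.584 in A/J. In B6 at that age they were 5.645, 5.842 and 5.417.

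The epithelial factors went in different directions, with Foxp2 falling, Foxp1 rising and Foxa2 near level. Foxp2, a repressor of the distal epithelium, lay at 9.19, 9.26 and 9.29 in A/J at E15.5 and at 7.69, 7.87 and 7.57 at PN0. In B6 it lay at 9.18, 9.32 and 9.28 at E15.5 and at 7.56, 7.22 and 8.02 at PN0. No replicate overlapped between these ages, and the drops were 2.90-fold in A/J (log2 -1.54, SE 0.13, adjusted p = 1.62e-11) and 3.16-fold in B6 (log2 -1.66, SE 0.13, adjusted p = 3.00e-12). The A/J level was still 9.41, 9.51 and 9.27 at E17.5 and 9.0, 9.27 and 8.73 at E18.5, and then dropped to 7.95, 7.71 and 7.90 at E19.5. That single day held a fall of 1.15 on the log2 scale (SE 0.13, adjusted p = 1.81e-07). In B6 the fall was spread over the day to E18.5, at -0.78 (adjusted p = 6.53e-05), and E18.5 to PN0, at -0.995 (adjusted p = 1.12e-06).

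Foxp1, which acts in airway epithelium and in other lung cells, was higher at PN0 than at E15.5 in both strains, and level from E18.5 to E20.5 in A/J. It lay at 8.63, 8.69 and 8.64 in A/J at E15.5 and at 9.54, 9.47 and 9.37 at PN0, a rise of 0.81 (SE 0.07, fold 1.75, adjusted p = 4.74e-11). In B6 it went from 8.69, 8.63 and 8.59 to 10.08, 10.13 and 9.84, a rise of 1.38 (SE 0.07, fold 2.60, adjusted p = 2.22e-16). At E18.5 it stood at 9.20, 9.19 and 9.21 in A/J and at 9.10, 9.02 and 9.24 in B6, and the B6 replicates at PN0 all lay above the A/J replicates. Foxp4, the third lung Foxp factor, dipped at E17.5 in A/J, to 7.62, 7.92 and 7.93 from 8.27, 8.25 and 8.16 at E15.5 (log2 -0.40, adjusted p = 0.000354, and -0.30 without E17.5 replicate 1, under the 25% asked for), and was back at 8.39, 8.43 and 8.23 a day later. Between E15.5 and PN0 it differed by 0.01 in A/J and 0.28 in B6, under the fold asked for.

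Foxa1 and Foxa2, the factors closest to surfactant and airway genes, moved little. Foxa1 was highest at E16.5 in both strains and went from 8.66, 8.60 and 8.81 at E15.5 to 8.25, 8.36 and 8.40 at PN0 in A/J (log2 -0.35, SE 0.09, adjusted p = 0.00156). In B6 it went from 8.71, 8.75 and 8.87 to 8.16, 8.32 and 8.22 (log2 -0.54, SE 0.09, adjusted p = 6.93e-06). The A/J change fell under the 25% asked for without replicate 3 of E15.5 (log2 -0.29) or replicate 1 of PN0 (-0.31). Foxa2 stayed between 7.63 and 8.13 in all 21 A/J replicates, with a difference between PN0 and E15.5 of 0.13 (SE 0.09, adjusted p = 0.239), and the F test called it in neither strain. In B6 that test narrowly missed (adjusted p = 0.00123, fold 1.35 between the highest and lowest mean). The B6 values at PN0, 8.33, 8.15 and 8.10, lay above every B6 replicate of E15.5 and E17.5. Foxa3 stayed dim, at 5.45 or lower in every replicate, although its B6 difference of -0.60 passed the test.

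Genes that Foxa1 and Foxa2 are known to bind in lung were set beside them. The list was drawn up with earlier results of these data known, so its counts are a description only. Of 12 such genes, 10 rose and none fell in each strain, with a median change of 2.21 in A/J and 2.04 in B6, while the median over all probe sets was -0.04 and 0.00. Among all probe sets, 21.6% rose in A/J and 20.6% in B6. Sftpd, a surfactant collectin, rose by 5.18 for A/J and 5.20 for B6, and Scgb1a1, the club cell secretoglobin, by 6.94 and 8.22. Sftpa1 and Sftpb, which encode surfactant proteins, rose by 4.5 and 4.13 in A/J. The largest departure of the Foxa2 group mean from E15.5 in A/J was a dip of 0.19 at E19.5, and in B6 one of 0.23 at E17.5.

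**Figure D2:**
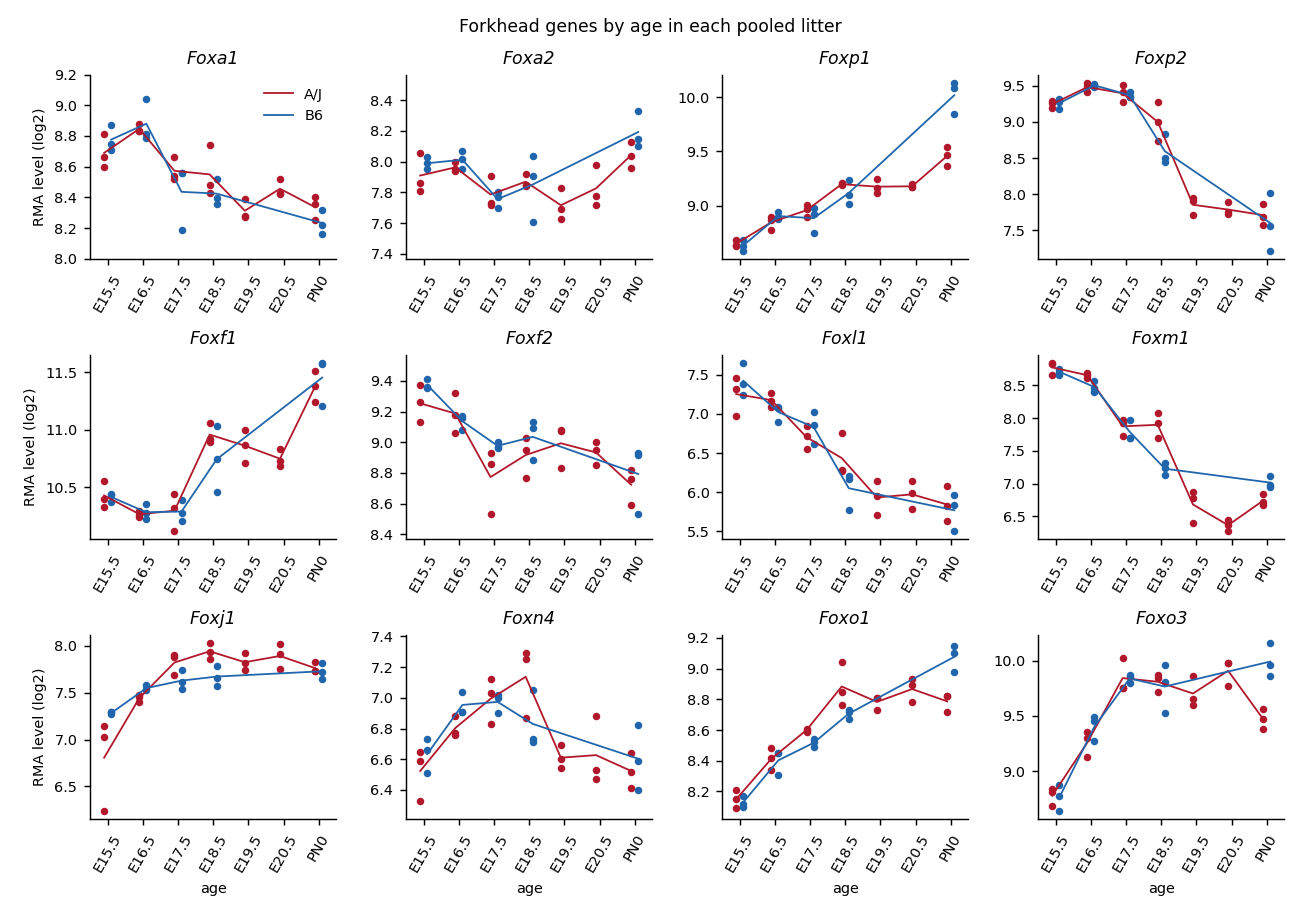
RMA log2 level of 12 forkhead genes by age in A/J (red) and B6 (blue). Each point is a pooled litter, lines join group means, panels have their own y axes of at least 1.2 log2 units, and B6 has no litters at E19.5 and E20.5. Foxp2 and Foxm1 drop between E18.5 and E19.5 in A/J, Foxf1 rises into PN0, and Foxp1 at PN0 is higher in every B6 litter than in any A/J litter.

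Among the mesenchymal factors Foxf1 rose late while Foxl1 and Foxf2 fell. Up to E17.5, A/J replicates of Foxf1 stayed between 10.12 and 10.55 and B6 replicates between 10.20 and 10.44. In A/J it then stood at 10.89, 10.92 and 11.06 at E18.5, at 10.83, 10.68 and 10.73 at E20.5 and at 11.24, 11.51 and 11.38 at PN0. In B6 it stood at 11.21, 11.58 and 11.57 at PN0, and its 4 arrays at E18.5 spread from 10.16 (array 2) to 11.03 (array 1). From E15.5 to PN0 it rose by 0.95 in A/J (SE 0.11, fold 1.93, adjusted p = 1.04e-08), and the B6 rise was 1.04 (SE 0.11, fold 2.06, adjusted p = 1.66e-09). A second probe set of Foxf1 rose by 0.72 and 0.85 (adjusted p = 2.02e-07 and 8.46e-09). Its A/J means were 9.92 at E15.5, 10.08 at E19.5, 9.81 at E20.5 and 10.64 at PN0. In B6 they were 9.967 at E15.5, 9.997 at E18.5 and 10.82 at PN0. At the last fetal age sampled it thus lay near or under its E15.5 level, unlike the brighter probe set. Over birth the brighter probe set rose by 0.63 in A/J from E20.5 to PN0 and by 0.71 in B6 from E18.5 to PN0. The second rose by 0.84 and 0.82, and replicates overlapped for neither.

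Foxl1, a mesenchymal factor known from the gut as a hedgehog target, went from 7.46, 7.32 and 6.98 at E15.5 to 6.08, 5.63 and 5.82 at PN0 in A/J (log2 -1.41, SE 0.16, fold 2.66, adjusted p = 3.81e-09). In B6 it went from 7.24, 7.65 and 7.38 to 5.96, 5.84 and 5.51 (log2 -1.65, SE 0.16, fold 3.15, adjusted p = 1.37e-10). The PN0 replicates of both strains lay around the level of the olfactory receptor probe sets, 5.83, so these folds may understate the change. Foxf2, a close relative of Foxf1, moved the other way, from 9.37, 9.26 and 9.13 to 8.59, 8.82 and 8.76 in A/J (log2 -0.53, adjusted p = 7.69e-05) and from 9.35, 9.41 and 9.36 to 8.53, 8.92 and 8.93 in B6 (log2 -0.58, adjusted p = 2.20e-05). Its lower level was in place by E17.5 in both strains, at -0.48 and -0.40.

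The vascular factors Foxc1 and Foxc2 dipped in the middle of the series. Foxc2, which acts in lymphatic vessels and valves, stood at E17.5 below its E15.5 level, at -0.50 for A/J and -0.61 for B6. In A/J its mean was lowest at E20.5, at -0.53. In B6 its mean was still 5.89 at E18.5, against 6.41 at E15.5. Its difference between PN0 and E15.5 was -0.09 in A/J and 0.05 in B6. Foxc1 fell by 0.47 in A/J at E17.5 and by 0.58 in B6 at E16.5, and the A/J call at E17.5 was lost without A/J E15.5 replicate 1 (-0.32, adjusted p = 0.0978) or E17.5 replicate 1 (-0.38, adjusted p = 0.0558). Its fall to PN0 in A/J, at -0.37 (adjusted p = 0.0272), was lost without A/J E15.5 replicate 1 (-0.22, adjusted p = 0.235), the litter high in heart and liver genes, and without A/J PN0 replicate 1 (-0.25, adjusted p = 0.189). Foxs1, known from pericytes, rose by 0.40 in B6 (adjusted p = 0.0131), and without B6 E15.5 replicate 2 or PN0 replicate 1 the value was 0.28 (adjusted p = 0.117 for each). In A/J its difference of 0.30 missed the threshold (adjusted p = 0.0624), and it passed without A/J E15.5 replicate 3 (0.40, adjusted p = 0.0261). Foxd1, known from stromal progenitors, was dim.

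Several of these genes are neighbours. Foxf1 (chr8:121084386-121088154), Foxc2 (chr8:121116171-121118895) and Foxl1 (chr8:121127685-121130644) lie within 46.3 kb, and Foxq1 (chr13:31558170-31560976), Foxf2 (chr13:31625816-31631406) and Foxc1 (chr13:31806646-31810635) within 252.5 kb. In the first cluster Foxf1 rose and Foxl1 fell in both strains, and Foxc2 ended at its starting level. In the other, Foxq1 went up by 0.29 in A/J and 0.42 in B6 while Foxf2 went down, and only the B6 value of Foxq1 was called.

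Genes of hedgehog signalling and of early lung mesenchyme, set beside Foxf1, mostly fell. Of 14 measured of 15 listed, 10 were lower and 1 higher at PN0 in A/J, and 9 and 2 in B6, with medians of -0.43 and -0.78. Among all probe sets, 21.2% fell and 21.6% rose in A/J, and 22.4% and 20.6% in B6. Smo, the hedgehog signal transducer, fell by 1.66 in both strains, Gli1, a transcription factor and readout of the pathway, moved by -1.58 in A/J and -1.15 in B6, and Gli3, a related factor, by -1.43 and -0.95. Tcf21, a mesenchymal transcription factor, rose by 2.04 for A/J and 0.85 for B6. Of 12 endothelial genes, 12 rose in A/J and 10 in B6 and none fell, with medians of 1.23 and 0.90. S1pr1, a sphingosine phosphate receptor of endothelium, rose by 2.66 and 2.78. Over the 12 group means, the genes whose course was most like that of Foxf1 were Tmem41a (Pearson r = 0.992), Pde3a (0.987), Tmem248, Unc50 and Coq10b, as a description of shared time courses.

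Foxj1 was called above its E15.5 level from E16.5 on in A/J, at 0.64, and from E17.5 on in B6, at 0.35. Without A/J E15.5 replicate 1 the A/J value was 0.35 (adjusted p = 0.0164), and the B6 call was lost without any 1 of 5 of the 6 litters compared (adjusted p = 0.0578 to 0.114) and after centring (0.31, adjusted p = 0.0623). In A/J it lay at 6.24, 7.03 and 7.15 at E15.5, 7.48, 7.40 and 7.45 at E16.5, 7.69, 7.90 and 7.88 at E17.5 and 7.73, 7.73 and 7.83 at PN0. In B6 it lay at 7.27, 7.29 and 7.29 at E15.5, 7.54, 7.53 and 7.58 at E16.5 and 7.65, 7.82 and 7.72 at PN0. From E15.5 to PN0 it rose by 0.96 in A/J (SE 0.13, fold 1.94, adjusted p = 1.40e-07), and the B6 rise was 0.45 (SE 0.13, fold 1.36, adjusted p = 0.00390). The lowest replicate, 6.24, was A/J E15.5 replicate 1, whose heart and liver genes were high, and without it the A/J rise was 0.67 (adjusted p = 1.08e-07). B6 exceeded A/J at E15.5 by 0.48 (adjusted p = 0.0381), the only forkhead gene called in that comparison, beside 2.21% of all probe sets. Without that replicate the strain difference was 0.19 (adjusted p = 0.515), and it missed the threshold without any 1 of the B6 litters as well (adjusted p = 0.104 to 0.124). The part of the heart and liver signal in the low value was not tested.

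Foxn4, which takes part in the formation of multiciliated cells in frog skin, rose and came back. The F test called it over time in A/J and not in B6 (adjusted p = 0.0153). In A/J it lay at 6.59, 6.33 and 6.65 at E15.5, rose to 7.29, 6.87 and 7.25 at E18.5 (log2 0.61, SE 0.12, adjusted p = 7.10e-05) and lay at 6.60, 6.69 and 6.54 at E19.5. In B6 it was highest at E17.5, at 7.0, 6.90 and 7.02, 0.34 over E15.5, a call lost without B6 E15.5 replicate 1 (0.28, adjusted p = 0.117) or E17.5 replicate 1 or 3 (adjusted p = 0.0632 and 0.0672) and after centring (0.31, under the 25% asked for). The fall of 0.53 from E18.5 to E19.5 in A/J passed the test (adjusted p = 0.00147), in a step where the median of all probe sets moved by -0.10.

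Of 23 measured genes of motile cilia, 20 were higher and 2 lower at PN0 in A/J, and 17 and 3 in B6, with medians of 1.12 and 0.72. The shares over all probe sets were 21.6% higher and 21.2% lower in A/J, and 20.6% and 22.4% in B6. Tppp3, a tubulin polymerization factor, rose by 3.22 and 2.20, Rsph4a, a radial spoke protein, by 2.38 and 1.35, Ak7, an adenylate kinase of cilia, by 1.74 and 1.67, and Cfap43, a protein of the axoneme, by 1.62 and 1.66. Mcidas, which starts the multiciliated program upstream of Foxj1, fell by 0.61 and 0.39, and Rfx3, a factor acting beside Foxj1, fell by 0.54 and 0.64. Drc1 fell in B6 alone among those called, by 0.39, beside 0.28 in A/J. The list median in A/J was 1.1 above E15.5 at E17.5 and 1.70 at E19.5, and at PN0 it was back at 1.12. The mean of Foxj1 itself was highest at E18.5 in A/J and at PN0 in B6. Over all ages the F test called Foxj1 in A/J and not in B6 (adjusted p = 0.0257). Over the 12 group means its course was most like those of Dynlrb2 (r = 0.968), Cfap69, Pias1, Cfap206 and Enkur.

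Foxm1, which drives the genes of mitotic entry, fell at least as far as any other forkhead gene in both strains, within a standard error of Foxp2 and Foxl1 in B6. In A/J it lay at 8.83, 8.84 and 8.65 at E15.5, 7.92, 7.97 and 7.73 at E17.5, 8.07, 7.92 and 7.70 at E18.5, 6.87, 6.39 and 6.78 at E19.5 and 6.37, 6.44 and 6.28 at E20.5. At PN0 it was at 6.67, 6.71 and 6.84, above every E20.5 replicate. In B6 it lay at 8.71, 8.75 and 8.66 at E15.5, 7.70, 7.70 and 7.97 at E17.5 and 6.98, 6.95 and 7.11 at PN0. The fall from E15.5 to PN0 was 4.09-fold in A/J (log2 -2.03, SE 0.10, adjusted p = 5.57e-17) and 3.23-fold in B6 (log2 -1.69, SE 0.10, adjusted p = 4.91e-15), and their difference of 0.34 did not pass the test (adjusted p = 0.184). In A/J the steps were -0.78 from E16.5 to E17.5 and -1.22 from E18.5 to E19.5, with no drop between them, while B6 went down by 0.68 and then by 0.56 on consecutive days.

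The mitotic genes that Foxm1 is known to switch on followed a similar course. Of 19 measured of 20 listed, 18 fell in each strain, none rose in A/J and 1, Cdc25b, rose in B6 by 0.38. Their median change was -2.93 in A/J and -2.43 in B6. The share of all probe sets that fell was 21.2% in A/J and 22.4% in B6. Top2a, a topoisomerase, moved by -4.11 in A/J and -3.12 in B6, Bub1b, a spindle checkpoint kinase, by -3.70 and -2.80, and Cenpe and Kif20a, mitotic kinesins, by -3.66 and -3.54 in A/J. In A/J the list median stood at -0.9 at E17.5, -1.18 at E18.5, -2.53 at E19.5 and -3.22 at E20.5 against E15.5. At these ages Foxm1 stood at -0.9, -0.88, -2.09 and -2.41. The list median thus went down from E17.5 to E18.5, where Foxm1 did not. Courses most like that of Foxm1 over the 12 group means were those of E2f7 (r = 0.997), Cks1b, Tacc3, Mad2l1 and Birc5. Cks1b and Birc5 belong to the list.

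**Figure D3:**
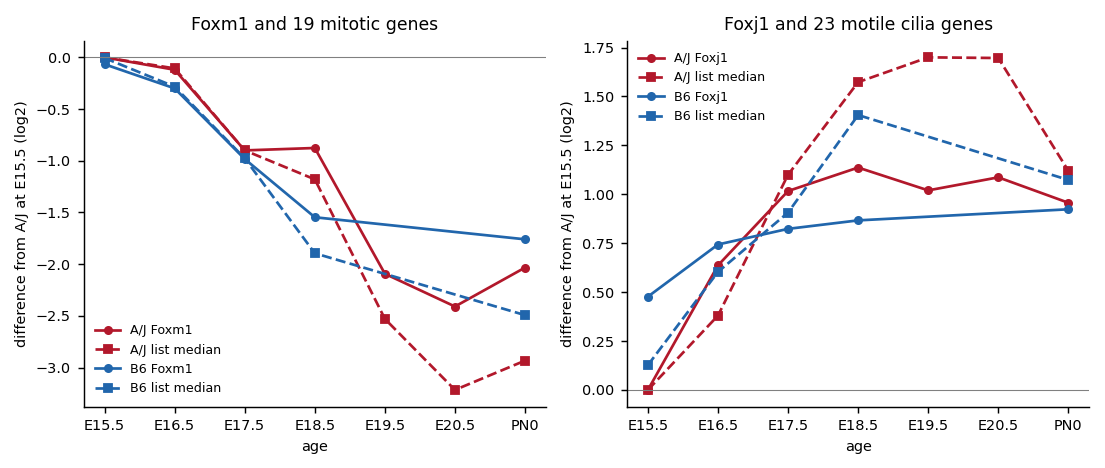
Difference from A/J at E15.5 (log2) of the group mean of Foxm1 (left, solid) and the median of 19 mitotic genes (dashed), and of Foxj1 (right, solid) and the median of 23 motile cilia genes (dashed), by age in A/J (red) and B6 (blue). At E18.5 Foxm1 is at -0.88 in A/J and -1.55 in B6, and in the left panel A/J at E19.5 lies lower, at -2.09 for Foxm1 and -2.53 for the list.

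Of the Foxo factors, Foxo1 and Foxo3 rose in both strains. Foxo3 lay at 8.81, 8.68 and 8.84 in A/J at E15.5, 9.30, 9.35 and 9.13 at E16.5, 10.03, 9.75 and 9.75 at E17.5, 9.98, 9.98 and 9.77 at E20.5 and 9.38, 9.56 and 9.47 at PN0. In B6 it lay at 8.64, 8.87 and 8.77 at E15.5, 9.85, 9.80 and 9.87 at E17.5 and 10.16, 9.96 and 9.86 at PN0. By E16.5 it stood 0.48 higher in A/J and 0.64 higher in B6 (adjusted p = 0.00250 and 4.33e-05). From E15.5 to PN0 the rise was 0.69 in A/J (SE 0.10, fold 1.62, adjusted p = 8.49e-07) and 1.23 in B6 (SE 0.10, fold 2.35, adjusted p = 7.82e-12). Unlike in B6, the A/J level at PN0 lay under every A/J replicate from E17.5 to E20.5.

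Foxo1 went from 8.09, 8.21 and 8.15 to 8.72, 8.82 and 8.82 in A/J (log2 0.64, SE 0.07, adjusted p = 1.46e-09) and from 8.10, 8.17 and 8.12 to 8.98, 9.10 and 9.15 in B6 (log2 0.95, SE 0.07, adjusted p = 2.35e-13). Foxo4 rose in A/J by up to 0.49 at E20.5 and stayed between 7.72 and 7.96 in every B6 array. Foxo6, known from brain, was dim. Of 17 measured genes known as Foxo targets or partners, 14 went up and 1 down in A/J, and 13 and 1 in B6, with medians of 0.77 and 0.82. The shares over all probe sets were 21.6% up and 21.2% down in A/J, and 20.6% and 22.4% in B6. Txnip, which binds thioredoxin, rose by 2.68 and 2.58 and Klf4 and Klf2, zinc finger factors, by 2.01 and 1.80 in A/J, while Sesn3, a stress-induced sestrin, fell by 1.34 and 0.99. Perp (r = 0.986), Per1, Sik1, Klf9 and Mef2a had courses most like that of Foxo1 over the 12 group means.

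Among the 23 remaining members, 4 rose in both strains with no role in the lung used to group them. Foxj2 rose by 0.98 for A/J and 1.16 for B6, Foxn3 by 0.92 and 1.04, Foxk1, a regulator of metabolism, by 0.55 and 0.61 and Foxj3 by 0.36 and 0.56. Foxj2 stayed between 7.68 and 8.23 up to E17.5 and lay between 8.5 and 8.84 in A/J from E18.5 on. A second probe set of Foxn3 rose by 0.53 and 0.85. The A/J rise of Foxj3 was 0.32, under the fold asked for, without replicate 2 of E15.5 or replicate 1 of PN0. Foxk2, a relative of Foxk1, dipped at E17.5 in A/J, to 7.91, 7.89 and 8.0 from 8.76, 8.61 and 8.58 at E15.5 (log2 -0.72, adjusted p = 6.52e-07), and was called downward at PN0 in B6 at -0.33, a call lost without B6 E15.5 replicate 1 (-0.32) or PN0 replicate 3 (-0.25). Foxq1 was called over time by the F test in A/J alone. In the A/J step to E18.5, Foxf1, Foxj2, Foxj3, Foxk1, Foxk2, Foxp4 and Foxc1 rose by 0.45 to 0.66, beside 19.0% of all probe sets that rose, and the median of all probe sets moved up by 0.12. In the same step Foxp2 (-0.40), Foxi2 (-0.35) and the dim Foxo6 (-0.52) fell, beside 2.69% of all probe sets. The calls of Foxp2 and Foxi2 were each lost without any 1 of 4 litters (Foxp2 -0.26 and Foxi2 -0.22 at the smallest), and that of Foxc1 without replicate 1 of E17.5 or of E18.5 (adjusted p = 0.0798 and 0.0784) and after centring (0.31, adjusted p = 0.0866).

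The remaining 17 genes of this group, among them Foxe1, known from thyroid, Foxn1 from thymus, Foxp3 from regulatory T cells and Foxl2 from ovary, were called neither between E15.5 and PN0 nor by the F test in either strain.

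Strain comparisons asked whether the strain with the shorter gestation was ahead at the same age. At E16.5 no forkhead gene was called by limma, beside 6.04% of all probe sets, with 11 of 43 at an unadjusted p under 0.05, beside 26.3% of all probe sets at that threshold. At E17.5 Foxo4 was called, lower in B6 (7.81, 7.81 and 7.91) than in A/J (8.34, 8.14 and 8.15) by 0.37 (adjusted p = 0.00179), beside 4.43% of all probe sets lower in B6. Without A/J E17.5 replicate 1 its difference was -0.30, under the fold asked for.

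At E18.5 B6 was lower in 6 forkhead genes and higher in none, beside 17.2% of all probe sets lower (3752) and 3.25% higher (709). The median of all probe sets was 0.13 lower in B6 here, and with arrays centred on their medians 1114 probe sets were lower and 1807 higher. Foxm1 was lower by 0.67 (SE 0.10, adjusted p = 2.21e-05), with 7.23, 7.32 (the mean of arrays 2 and 2b) and 7.13 in B6 against 8.07, 7.92 and 7.70 in A/J, and stayed called after centring at -0.52 (adjusted p = 0.000747). Foxc1 was lower by 0.54 (adjusted p = 0.00387) and by 0.39 after centring (adjusted p = 0.0363). Foxj3, Foxp2, Foxo4 and Foxp4 differed by -0.45, -0.41, -0.36 and -0.34, and after centring, at -0.30, -0.25, -0.21 and -0.19, none of the 4 was called. Centring instead called Foxe3, Foxi2, Foxs1 and the dim Foxn1 and Foxo6 higher in B6. The Foxp2 call was also lost without A/J E18.5 replicate 2 (-0.27, adjusted p = 0.150) and without 3 other litters, that of Foxp4 without A/J E18.5 replicate 2 or B6 E18.5 replicate 2, and that of Foxo4 without A/J E18.5 replicate 3 (-0.30, under the 25% asked for). By the mean over oesophagus and upper airway genes, every A/J litter at this age was above every B6 litter. The part of that signal in these differences was not tested. Among the mitotic genes 16 of 19 were lower in B6, with a median of -0.68. Of the 12 genes bound by Foxa factors, 5 were higher and none lower, Sftpd by 0.99. Of the 23 motile cilia genes, 9 were lower in B6 and none higher, with a median of -0.24.

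Both strains were then compared a day before birth, which is E18.5 for B6 and E19.5 for A/J, where 7.61% of all probe sets were called. Here Foxp2 was higher in B6 by 0.74 (SE 0.13, adjusted p = 0.000323) and Foxm1 by 0.55 (SE 0.10, adjusted p = 0.000551). Foxm1 at 7.23, 7.32 and 7.13 in B6 thus lay between the A/J values of E18.5 (7.70 and above) and E19.5 (6.87 and below). Of the mitotic genes, 14 of 19 were higher in B6 and none lower, with a median of 0.62. Of the motile cilia genes, 8 of 23 were lower in B6 and none higher, with a median of -0.29. Foxj3 was lower by 0.33 (adjusted p = 0.0159), and without any of 4 litters, or after centring (-0.31), it was not called. For Foxa1, Foxf1, Foxo1 and Foxp1 the fitted differences lay between -0.12 and 0.11 and were not called.

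**Figure D4:**
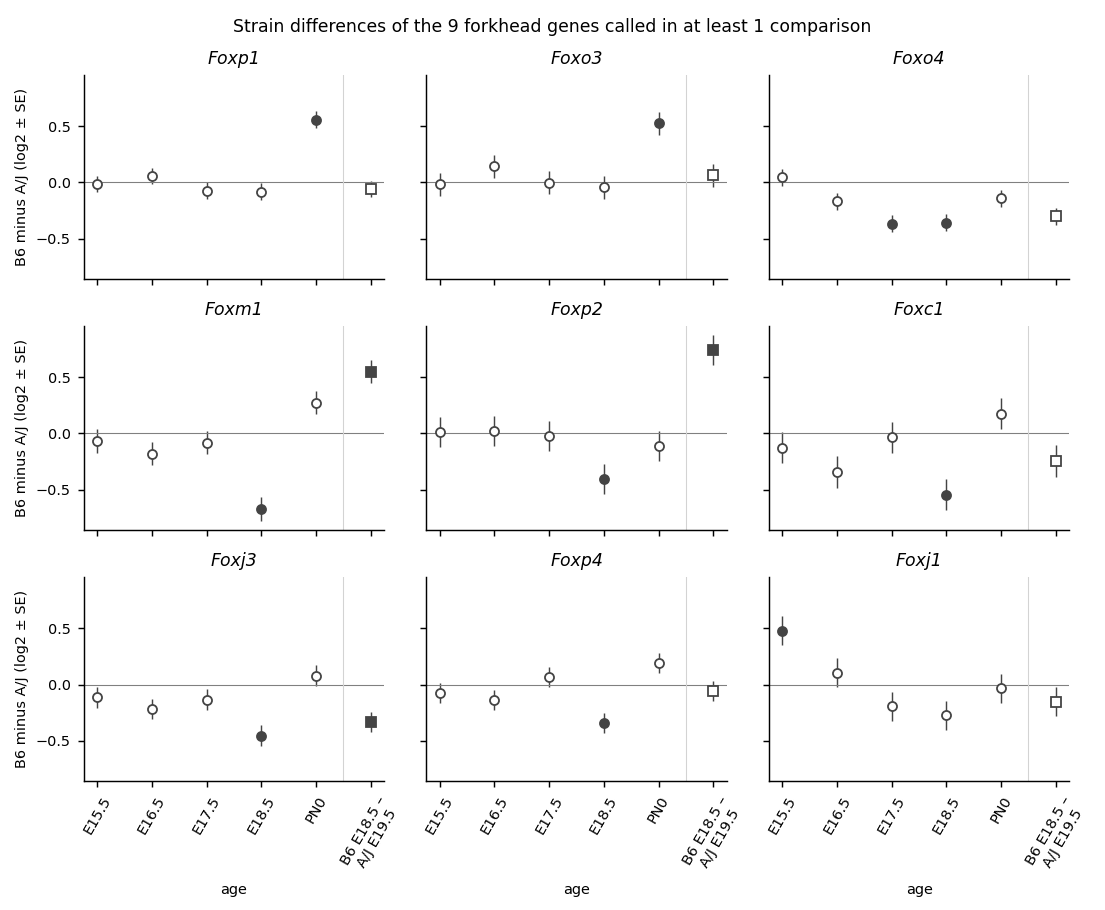
Fitted log2 difference B6 minus A/J, with limma's standard error, for the 9 forkhead genes called in at least 1 strain comparison, at the 5 shared ages (circles) and a day before birth, E18.5 for B6 minus E19.5 for A/J (squares). Filled symbols passed the test. Foxm1 is at -0.67 at E18.5 and at 0.55 against A/J at E19.5, and Foxp1 and Foxo3 passed at PN0 and at none of the fetal ages.

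At PN0 Foxp1 and Foxo3 were higher in B6, by 0.56 (SE 0.07, adjusted p = 1.90e-06) and 0.52 (SE 0.10, adjusted p = 0.000418), with no overlap of replicates, beside 4.96% of all probe sets higher (1080), while 2025 were lower. With arrays centred, 1945 were higher and 1250 lower, and Foxm1 (0.36, adjusted p = 0.0126), Foxo1 (0.37, adjusted p = 0.000207) and the dim Foxd4 and Foxo6 were called higher too. Uncentred, Foxo1 was higher by 0.29 (adjusted p = 0.00237), under the fold asked for, and Foxm1 by 0.27 (adjusted p = 0.0590). At the fetal ages both strains had differed in Foxp1 by 0.08 or less and in Foxo3 by 0.14 or less. The change from E15.5 to PN0 was larger in B6 by 0.57 for Foxp1 (SE 0.10, adjusted p = 0.000758) and by 0.54 for Foxo3 (SE 0.15, adjusted p = 0.0227), beside 5.88% of all probe sets called for this difference. Of those probe sets 428 were positive and 854 negative, and 909 and 539 with arrays centred.

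Over birth itself, 4 forkhead genes rose and 2 fell from E20.5 to PN0 in A/J, beside 8.11% of all probe sets that rose and 6.00% that fell. Foxf1 rose by 0.63 (adjusted p = 0.000108), Foxm1 by 0.38 (adjusted p = 0.00823), Foxc2 by 0.44 (adjusted p = 0.0206) and Foxn3 by 0.33 (adjusted p = 0.0149). Foxo3 fell by 0.44 (adjusted p = 0.00233), and Foxe3, known from lens, fell by 0.40 (adjusted p = 0.0196). Without A/J PN0 replicate 2, which was high in oesophagus genes, Foxc2 (0.30, adjusted p = 0.184), Foxn3 (0.25, adjusted p = 0.126) and Foxe3 (-0.32, adjusted p = 0.121) were not called, and Foxc2 and Foxe3 were not without A/J E20.5 replicate 1 (adjusted p = 0.0855 and 0.0581), whose mean over the oesophagus genes, 5.52, was below those of the other litters, 6.84 and 6.83. Foxn3 and Foxe3 were also not called without A/J E20.5 replicate 2 (0.265 and -0.36) or A/J PN0 replicate 1 (0.29 and -0.37). Neither litter was among those flagged for neighbouring-tissue genes. In oesophagus genes, though, A/J E20.5 replicate 2 stood at 6.84, near the flagged A/J PN0 replicate 2 at 6.94. The mean of the second Foxn3 probe set moved by 0.18 and was not called.

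From E18.5 to PN0 in B6, a longer developmental step, 11 forkhead genes rose and 1 fell, beside 9.02% of all probe sets that rose (1965) and 10.6% that fell (2310), and with arrays centred 2914 rose and 1576 fell. Foxp1 rose most, by 0.90 (SE 0.07, adjusted p = 1.64e-10), then Foxf1 by 0.71, Foxn3 by 0.63, Foxc2 by 0.58, Foxj3 by 0.46, Foxp4 by 0.42, Foxo1 and Foxc1 by 0.37, Foxk1 by 0.36 and Foxa2 and Foxj2 by 0.34. Foxp2 was the one that fell, with a log2 change of -0.995. Without B6 E18.5 replicate 2, formed from arrays 2 and 2b, Foxa2 (0.22), Foxj2 (0.26), Foxk1 (0.25) and Foxc1 (0.42, adjusted p = 0.0542) were not called. Foxc1 was also not called without any 1 of 4 other litters. The call of Foxa2 was lost without B6 PN0 replicate 1 (0.27), and those of Foxj2 (0.28) and Foxk1 (0.295) without B6 PN0 replicate 2. The A/J and B6 birth comparisons span different ages, and their difference was not tested.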

How the data were processed

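The authors extracted RNA from homogenates of the right lung, hybridised it to Affymetrix Mouse Gene 1.0 ST arrays and made the values by RMA, with Affymetrix Expression Console 1.1, per the labels and the study's methods. RMA corrects background, gives all arrays the same distribution of probe intensities and summarises probes, so shifts common to most genes are reduced. The deposited values are log2 levels and were used as deposited. GEO's annotation named probe sets, with symbols updated through gene identifiers, and the 21789 with exactly 1 symbol were tested. A model with 1 mean per group (12 groups, 36 replicates) was fitted by limma 3.58.1 under R 4.3.3 (24 residual degrees of freedom), with Benjamini-Hochberg adjustment over all probe sets of a comparison, and the fit was tested on simulated data. Calls needed both an adjusted p under 0.05 and a difference of at least 25%. The B6 arrays 2 and 2b of E18.5 were used as their mean, since their labels share a number. Array 2b correlated with arrays 1, 2 and 3 at 0.993. Array 2 correlated with arrays 1 and 3 at 0.988, and these 2 with each other at 0.994. That arrays 2 and 2b come from the same litter is therefore not established. Text names all genes of the role lists, other forkhead genes called in both strains or between strains, up to 4 genes per companion list with the largest A/J change, and 5 genes with the most alike course. Other forkhead genes, and Mcidas, Rfx3, Drc1 and Cdc25b, which moved against their lists, were named after their values were seen. Alternatives changed the scaling, the filter on dim probe sets, the threshold, the samples fitted, array 2b and single litters. Members and lists were chosen with earlier results of these data known. Replicate numbers were not used as pairs: deviations of same-numbered litters correlated at -0.00997 on average, and those of others at 0.00499. Array number and replicate number limit the precision. Promoters came from RefSeq. Figures used matplotlib in Python. The Bayesian time-series model, clustering and RT-PCR of the study were not used here.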

Additional observations from a re-analysis of the deposited data

Results flagged for a closer look

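The change from E15.5 to PN0 differed between the strains by the test of that difference in 2 forkhead genes. By limma's interaction test, for Foxp1 the change in B6 exceeded that in A/J by 0.57 (log2), and for Foxo3 by 0.54. Foxp1 was higher in 3 of 3 B6 litters than in any A/J litter at PN0 and passed in every alternative that kept the 25% asked for. Foxo3 had the same order of litters at PN0, and its difference was not called without A/J E15.5 replicate 1 (0.52, adjusted p = 0.0520), A/J E15.5 replicate 3 (0.51, adjusted p = 0.0577), A/J PN0 replicate 1 (adjusted p = 0.0570), B6 E15.5 replicate 1 (0.48, adjusted p = 0.0747) or B6 PN0 replicate 1 (0.46, adjusted p = 0.0659). PN0 lungs of B6 were younger after conception than those of A/J, so strain and age at birth cannot be told apart in either value.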

How the results depend on the processing

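The 66 calls of forkhead genes in these comparisons, and 32 named calls between other ages, kept their sign under every alternative run, while differences near 0 that were not called, such as that of Foxp4 in A/J, could change sign. Leaving out 1 litter ended 19 of the 66 and 7 of the 32 at least once. With a fold of 1.5 asked for, 3 genes fell in A/J, 7 rose and 4 fell in B6 from E15.5 to PN0, 1 changed over birth in A/J and 4 from E18.5 to PN0 in B6. At that fold 0 differed between strains at E15.5, 0 at E17.5, 1 at E18.5, 0 at PN0 and 1 a day before birth, and the change differed in 0. Centring arrays on their median gave 0 at E15.5 and 6 at PN0. Quantile normalization gave 0 at E15.5, 1 at E16.5 and 4 at PN0. Fitting only the groups compared gave 0, 5, 2 and 3 at the 4 shared fetal ages in order. Without dim probe sets 1 differed at E16.5 and 2 at E17.5, and by adjusted p alone 2 at E17.5. Leaving out the 5 replicates high in neighbouring-tissue genes, chosen after seeing the data, gave 0 at E15.5 and 1 for the difference in change. The cause was not tested. With 1 litter left out in turn, 8 to 11 rose and 4 to 8 fell in A/J, 10 to 11 rose and 6 to 8 fell in B6, 17 to 20 and 14 to 17 changed over time, 4 to 7 changed over birth in A/J and 9 to 11 from E18.5 to PN0 in B6. The strain comparisons then gave 0 to 1 at E15.5, 0 to 1 at E16.5, 0 to 2 at E17.5, 5 to 9 at E18.5, 2 to 4 at PN0, 2 to 3 a day before birth and 1 to 3 for the difference in change. Litters share only a number and were not paired, and with the replicate number as a block 9 rose and 6 fell in A/J, 11 rose and 7 fell in B6, 18 and 15 changed over time, 7 changed over birth in A/J and 11 from E18.5 to PN0 in B6. Using array 2b without array 2 ended 6 of the 66 calls, all in comparisons with B6 at E18.5. Dim genes are limited by background.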
